A study of Homo sapiens with 3 samples.

Results

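MKI67, CCNB1, CDK1, CCND1 and ECT2, genes of cell proliferation and division, were followed in cultures of MDA-MB-231, a human cell line long established from a triple-negative breast cancer, that is one without oestrogen receptor, progesterone receptor and HER2 amplification. The genes were taken by name from the platform annotation of the array. Each had 1 probe set, so 5 probe sets stood for the 5 genes, out of 8868 protein-coding genes that could be compared. For 72 h the cells received either CFX at 10 µM, Mt-CFX at 10 µM, or, as the control, the solvent DMSO at 1%. From the title of the series CFX is taken to be ciprofloxacin, an antibiotic of the fluoroquinolone class, while Mt-CFX is a code name and is used as such. A DMSO content is labelled for the control alone, so the compounds and the solvent content cannot be told apart. Each group was 1 array (n = 1). No value therefore has a replicate error, no difference could be set against the spread between repeats, and no p-value is given.

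Cells pass through division under the control of cyclins, unstable proteins that switch on cyclin-dependent kinases (CDKs). CCND1 encodes cyclin D1, which links growth signals to the start of the cycle through CDK4 and CDK6 and the RB protein. CCNB1 encodes cyclin B1 and CDK1 its kinase partner, and together they drive entry into mitosis. ECT2 encodes a guanine nucleotide exchange factor that activates RHOA at the cell equator so that the contractile ring can form. MKI67 encodes Ki-67, a protein of the surface of mitotic chromosomes that is present in cycling cells and absent from resting ones, and it is the routine marker of proliferation in breast tumours. Many genes of late cell cycle phases are controlled through promoters with an NF-Y box and a cell cycle homology region (CHR), which the MuvB complexes bind, and many genes of the G1/S transition through E2F sites.

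Promoter sequences are printed in full for MKI67, CCNB1 and ECT2, the 3 of the 5 genes whose lowest value was on the Mt-CFX array alone. Motifs were also counted for CDK1, whose Mt-CFX value equalled that of the control. RefSeq windows (GRCh38.p14) were found for 4 of the 5 genes, and CDK1 and ECT2 had a pair of annotated starts each. Stretches are given on the strand of the gene, and capitals mark the letters searched for on both strands. These were CCAAT (NF-Y box), TTTGAA or TTTAAA (CHR), and TTGGCGC or TTCGCGC (E2F-type). The MKI67 stretch lies at chr10:128126424-128126673 (minus strand), that of CCNB1 at chr5:69166900-69167149 (plus strand) and that of ECT2 at chr3:172750476-172750725 (plus strand, before its upstream start).
MKI67: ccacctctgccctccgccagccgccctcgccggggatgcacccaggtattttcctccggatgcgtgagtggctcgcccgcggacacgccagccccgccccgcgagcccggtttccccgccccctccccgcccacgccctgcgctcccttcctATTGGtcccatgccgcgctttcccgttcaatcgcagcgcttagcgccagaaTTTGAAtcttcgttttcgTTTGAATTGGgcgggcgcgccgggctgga
CCNB1: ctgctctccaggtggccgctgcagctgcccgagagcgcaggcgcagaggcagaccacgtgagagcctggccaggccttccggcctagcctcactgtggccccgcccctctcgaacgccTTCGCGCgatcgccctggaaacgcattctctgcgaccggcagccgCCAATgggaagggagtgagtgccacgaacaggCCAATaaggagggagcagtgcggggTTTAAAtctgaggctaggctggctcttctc
ECT2: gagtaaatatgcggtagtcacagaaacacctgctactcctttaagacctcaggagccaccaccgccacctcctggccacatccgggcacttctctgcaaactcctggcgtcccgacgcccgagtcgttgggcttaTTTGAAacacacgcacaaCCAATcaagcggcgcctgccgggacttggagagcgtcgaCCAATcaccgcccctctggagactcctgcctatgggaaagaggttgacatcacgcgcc

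In the 250 bases before the MKI67 start there were 2 NF-Y boxes and 2 CHR matches, and the CHR match nearest the start shared 1 base with an NF-Y box. CCNB1 had 2 NF-Y boxes, 1 CHR match and 1 E2F-type match, with the CHR match beginning 30 bases before the start. Before the upstream start of ECT2 there were 2 NF-Y boxes and 1 CHR match, and before its downstream start 2 CHR matches and 0 NF-Y boxes. The upstream start of CDK1 was preceded by 1 NF-Y box, 2 CHR matches and 1 E2F-type match, and its downstream start by 2 of each. The pair of CHR matches before the downstream CDK1 start is shown in stretches of 30 bases, at chr10:60778397-60778426 and chr10:60778448-60778477 (plus strand).
CDK1 distal: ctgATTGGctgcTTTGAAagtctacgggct
CDK1 proximal: ccctttagcgcggtgagTTTGAAactgctc

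Such short motifs are common. Of 35116 promoter windows of the same length, 32.0% held an NF-Y box, 21.9% a CHR match, 4.24% an E2F-type match, and 7.64% both an NF-Y box and a CHR match. Of the 6 windows of these genes, 5 held both, and the windows of the 2 CDK1 starts overlap and so share bases. MKI67, CCNB1, ECT2 and CDK1 all held both motifs in the window of some start. A match describes letters only, and whether the motifs bear on the array values was not tested.

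**Figure D1:**
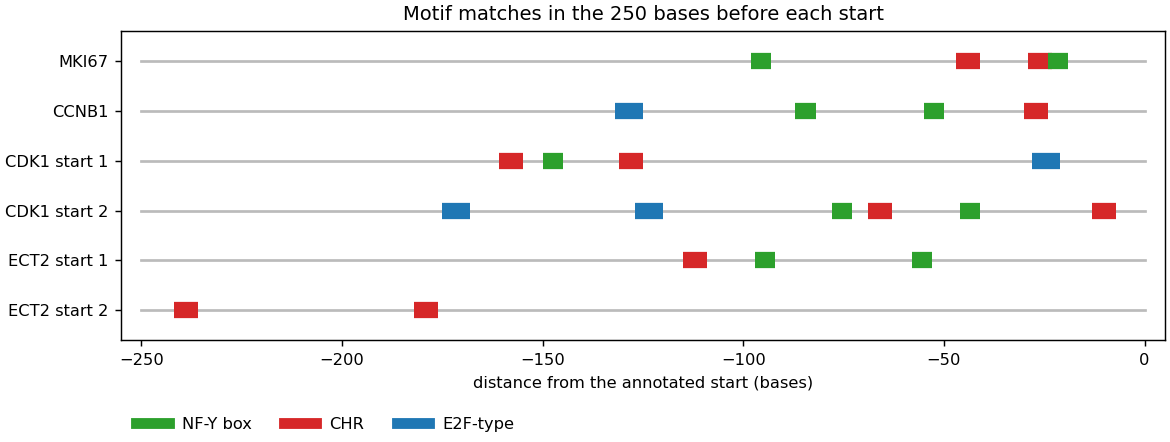
Motif matches in the 250 bases before each annotated start of MKI67, CCNB1, CDK1 and ECT2, with the distance from the start in bases on the horizontal axis and a coloured block for each match. MKI67, CCNB1, the upstream ECT2 start and the downstream CDK1 start carry 2 NF-Y boxes each within 100 bases. The downstream ECT2 start carries 0.

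The array values were RMA values on a log2 scale. Array medians ran from 3.88 (Mt-CFX) to 3.91 (control), and the median over all arrays, 3.89, was used as a floor. The 5 genes lay well above it on every array. The deposited values were exactly equal on all 3 arrays for 45.3% of the genes compared, on exactly 2 arrays for 30.8%, and all different for 23.9%. The source of these equal values was not tested. A gene with equal values is therefore one for which these data show no difference, which is not evidence that its transcript was the same. Of the named mesenchymal markers of this line, VIM, CD44, ZEB1 and AXL, all 4 were above the floor. Of the luminal markers, PGR was below it on every array and ESR1 reached it on the CFX array alone, at 3.92, while GATA3, FOXA1, KRT18, KRT8 and EPCAM were above it. The endothelial marker PECAM1 and the monocyte marker CD14 were below it.

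Across the 3 arrays, all 5 genes had a lower value with Mt-CFX than with CFX, where 25.2% of all genes compared did. MKI67 differed most, and CDK1 least. Against the control, 3 of the 5 were lower with Mt-CFX (23.2% of all genes) and 2 had exactly the control value (52.9% of all genes). With CFX, 4 were higher than in the control (25.8% of all genes), 1 was equal to it (59.2%) and 0 were lower (15%). No difference of the 5 genes reached 2-fold. Of all genes 0.0226% were 2-fold higher and 0% 2-fold lower with CFX than in the control, 0.304% and 0.259% with Mt-CFX than in the control, and 0.259% and 0.124% with Mt-CFX than with CFX. RNA was taken from whole cultures, in which fewer cycling cells and less RNA of a gene per cell cannot be told apart.

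**Figure D2:**
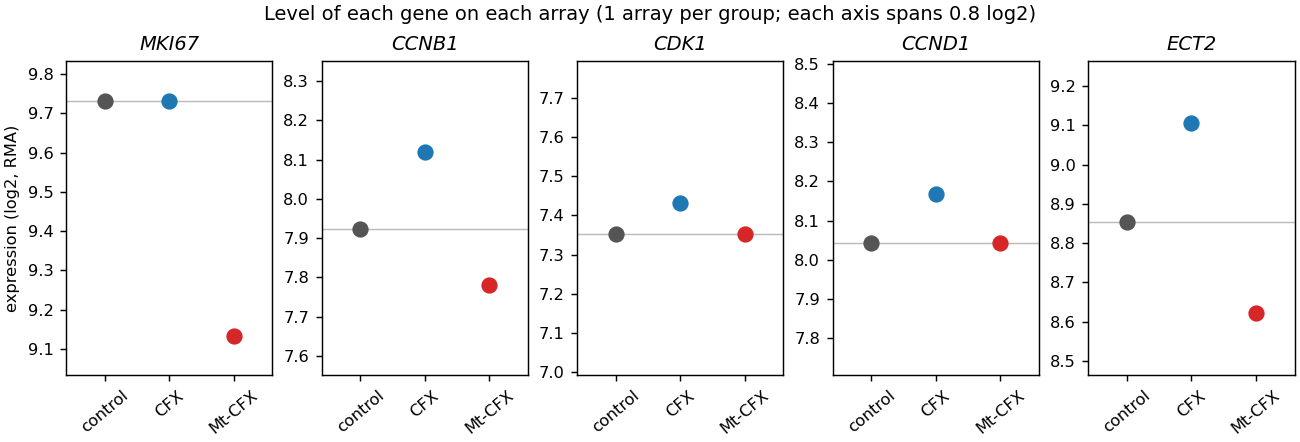
RMA level (log2, vertical axis) of each gene on the control, CFX and Mt-CFX arrays, 1 point per array, with a grey line at the control value and axes of equal span. Mt-CFX is the lowest point for MKI67, CCNB1 and ECT2, and coincides with the control for CDK1 and CCND1.

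MKI67 stood at 9.73 log2 on the control array, at 9.73 on the CFX array and at 9.13 on the Mt-CFX array. The value with CFX was identical to that of the control, and the Mt-CFX array alone was low. The difference of −0.60 log2 put MKI67 with Mt-CFX at 0.660 of the control value. It was the only one of the 5 genes that was at least 1.5-fold lower than the control, a size reached by 1.25% of all genes, and only 102 of the 8868 genes had a lower difference. At least 1.2-fold lower, a size reached by 5.73% of all genes, it was again the only one of the 5.

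Proteins that work with Ki-67 on the chromosome surface or in the nucleolus gave a mixed picture. Of 9 listed genes 6 were measured. With Mt-CFX 4 were lower than the control (23.2% of all genes), 1 was higher (23.9%) and 1 was equal (52.9%). The median was −0.10 log2 against 0.00 for all genes. NIFK, whose protein binds the forkhead-associated domain of Ki-67, had the opposite sign to MKI67, with 8.75 in the control, 8.82 with CFX and 8.99 with Mt-CFX. KIF15, a mitotic kinesin that binds Ki-67, had equal values on the 3 arrays. None of the 6 differed by 1.2-fold in any comparison. Of all genes 5.73% were at least 1.2-fold lower and 5.99% at least 1.2-fold higher with Mt-CFX than in the control.

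Other routine proliferation markers were mostly lower with Mt-CFX, as MKI67 was. Of 13 genes, all measured, 12 were lower with Mt-CFX than in the control (23.2% of all genes). The ribonucleotide reductase subunit gene RRM2 was equal (52.9%). The median was −0.30 log2, and 8 of the 13 were at least 1.2-fold lower (5.73% of all genes), though 0 reached 1.5-fold (1.25%). MCM4, a subunit of the replicative helicase, was at 8.39 in the control, 8.41 with CFX and 7.85 with Mt-CFX, and its sister subunits MCM2 and MCM5 differed from the control by −0.38 and −0.37 log2. TYMS, which makes thymidylate for DNA synthesis, was at 9.57, 9.70 and 9.06 in the same order. With CFX, 10 of the 13 were higher than the control (25.8% of all genes), with a median of 0.035 log2. PCNA, the sliding clamp of DNA polymerases, was the one gene at least 1.2-fold higher (1.76% of all genes), by 0.31 log2. MKI67, with no difference between CFX and control, was unlike PCNA in that comparison.

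CCNB1 was at 7.92 in the control, 8.12 with CFX and 7.78 with Mt-CFX. The control lay between the compounds. The Mt-CFX value was 0.906 of the control, a difference of −0.14 log2, and the CFX value was 1.15 times the control, a difference of 0.20. Lower differences than that of CCNB1 were found for 1012 genes with Mt-CFX, and higher ones for 319 genes with CFX. Between the compounds the difference was −0.34 log2.

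CDK1 stood at 7.35 in the control, 7.43 with CFX and 7.35 with Mt-CFX. The Mt-CFX and control values were identical, and CFX was higher by 0.078 log2, a ratio of 1.06. The value of CDK1 in the control was also the exact value of 15 other probe sets on that array, and its Mt-CFX value that of 14 others, whereas none of the 3 values of MKI67 or CCNB1 recurred on its array. How far such recurring values hide a difference was not tested.

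The other mitotic cyclins did not all follow CCNB1. CCNA2, cyclin A2, which acts from S phase to early mitosis, was at 8.38 in the control, 8.50 with CFX and 8.16 with Mt-CFX. CCNB2, cyclin B2, was at 7.81, 7.83 and 7.81, with Mt-CFX equal to the control as for CDK1. CCNF, a cyclin that serves as a substrate receptor of a ubiquitin ligase, differed from the control by 0.00 with CFX and −0.16 with Mt-CFX. 

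Regulators of CDK1 were equal or lower with Mt-CFX. Of 11 listed genes 8 were measured. Among these 4 were lower than the control (23.2% of all genes), 0 were higher (23.9%) and 4 were equal (52.9%). The median was −0.0086 log2. CDC25A, the phosphatase that removes inhibitory phosphates from CDKs at G1/S and mitotic entry, was at 6.49 in the control, 6.55 with CFX and 5.90 with Mt-CFX. Its difference of −0.59 log2 was the only one in the list of at least 1.2-fold (5.73% of all genes were at least 1.2-fold lower). Its relatives CDC25B and CDC25C had equal values on the 3 arrays. WEE1, the kinase that opposes CDC25, was at 6.63, 6.74 and 6.51 in the control, CFX and Mt-CFX arrays. The CDK inhibitors were mostly not analysed here. Of 8 listed genes 6, among them CDKN1A and CDKN1B, had no probe set named here, so nothing is known of their level. CDKN2A was below the floor. CDKN3, a phosphatase that acts on CDKs, was the only member of its list above the floor, with differences of 0.11 for CFX and 0.0023 for Mt-CFX against the control.

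Kinases of mitosis and spindle checkpoint genes were lower with Mt-CFX in 10 of 12 measured genes (23.2% of all genes). Of the others 1 was higher (23.9%) and 1 equal (52.9%), and the median was −0.19 log2. KNL1, a kinetochore scaffold, was at 8.29 in the control, 8.38 with CFX and 7.94 with Mt-CFX. AURKA, a kinase of spindle poles, was at 6.87, 6.87 and 6.57. These were the 2 genes at least 1.2-fold lower than the control (5.73% of all genes). PLK1, BUB1, BUB1B and TTK differed by −0.16, −0.20, −0.22 and −0.23 log2, while AURKB had the control value with Mt-CFX. With CFX, 8 of the 12 were higher than the control (25.8% of all genes) and 1 was lower (15%), with a median of 0.030 log2.

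Genes listed for the anaphase-promoting complex, which marks cyclin B1 for destruction, and for the separation of sister chromatids showed smaller differences. With Mt-CFX 10 of the 18 measured genes lay below the control (23.2% of all genes) and 8 were equal to it (52.9%). The median was −0.021 log2, which was −0.0096 with the floor at the 75th percentile or with averaged probe sets. None of the 18 differed by 1.2-fold (5.73% of all genes were at least 1.2-fold lower and 5.99% higher). ESPL1, which encodes separase, was lowest at −0.20 log2. CDC20, the activator of the complex in mitosis, was at 8.42 in the control, 8.31 with CFX and 8.26 with Mt-CFX, so that here both compounds were below the control.

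CCND1 was at 8.04 in the control, 8.17 with CFX and 8.04 with Mt-CFX. The Mt-CFX and control values were identical, as for CDK1, and the CFX array alone was high, by 0.12 log2 or a ratio of 1.09. With CFX 690 genes had a higher difference. The Mt-CFX value was 0.917 of the CFX value. The other D-type cyclin genes, CCND2 and CCND3, had equal values on the 3 arrays, CCND2 close to the floor at 3.96.

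Values of the E-type cyclins, which act after cyclin D1 at the entry to S phase, were below the control on the Mt-CFX array. CCNE2, cyclin E2, an activator of CDK2, was at 6.29 in the control, 6.29 with CFX and 5.65 with Mt-CFX, a difference of −0.64 log2 and the lowest among the cyclins. CCNE1, cyclin E1, was at 5.72, 5.57 and 5.43, with both compounds below the control. Over all 9 cyclins, CCNB1 and CCND1 included, 5 were lower with Mt-CFX than in the control (23.2% of all genes). None were higher (23.9%) and 4 were equal (52.9%), with a median of −0.14 log2. With CFX 4 were higher (25.8% of all genes), 1 was lower (15%) and 4 were equal (59.2%).

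The CDK genes differed less. CDK4, a partner of cyclin D1, had equal values on the 3 arrays, and CDK6, the other partner, differed from the control by 0.0028 log2 with CFX and 0.00 with Mt-CFX. CDK2, the partner of cyclins E and A, was at 7.58 in the control, 7.57 with CFX and 7.41 with Mt-CFX. CDK7, part of the kinase that activates other CDKs, was the one CDK higher with both compounds, at 6.17, 6.37 and 6.42. None of the 5 CDKs differed by 1.2-fold, though CDK7 with Mt-CFX, at 1.196 times the control, was just short of it. With Mt-CFX 5.99% of all genes were at least 1.2-fold higher than the control and 5.73% at least 1.2-fold lower.

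Downstream of cyclin D1, the RB and E2F genes split into equal and lower ones with Mt-CFX. Of 10 measured genes 5 were lower than the control (23.2% of all genes), 1 was higher (23.9%) and 4 were equal (52.9%). The median was −0.11 log2, and 4 were at least 1.2-fold lower (5.73% of all genes). With the floor at the 75th percentile, which leaves out E2F2, the median was 0.00. E2F8, a repressor of the family, was at 7.70 in the control, 7.63 with CFX and 7.09 with Mt-CFX. E2F2, an activator, was at 5.04, 5.18 and 4.54, and E2F1, another activator, at 6.50, 6.50 and 6.07. TFDP1, the dimerisation partner of E2F proteins, was lower than the control by a log2 difference of −0.45. RB1 itself, RBL2, E2F3 and E2F7 had equal values on the 3 arrays. RBL1, which encodes p107, was at 7.79, 8.04 and 7.57, the same order of arrays as CCNB1 and ECT2.

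Genes that act on the turnover of cyclin D1 were close to the control, with 1 exception. FBXO4, the gene of an F-box protein reported to target cyclin D1, was at 4.44 in the control, 4.86 with CFX and 5.05 with Mt-CFX, a difference of 0.61 log2 for Mt-CFX, and it lay not far above the floor. The other 4 measured genes, AMBRA1, GSK3B, CUL4A and CUL4B, differed from the control by between −0.048 and 0.023 log2 with Mt-CFX and were equal to it with CFX.

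ECT2 was at 8.85 in the control, 9.11 with CFX and 8.62 with Mt-CFX. The compounds lay on opposite sides of the control, by 0.25 log2 for CFX and −0.23 for Mt-CFX. The CFX value was 1.19 times the control and just short of 1.2-fold, a size that 1.76% of all genes and 0 of the 5 genes reached. A higher difference with CFX was found for 173 genes, so that ECT2 was the highest of the 5 genes in that comparison. With Mt-CFX it was at 0.851 of the control, and 601 genes had a lower difference.

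RACGAP1 encodes the partner that recruits ECT2 to the spindle midzone, and it had the same order of arrays as ECT2. It was at 4.85 in the control, 5.09 with CFX and 4.26 with Mt-CFX, the latter not far above the floor. KIF23, whose protein forms the centralspindlin complex with that of RACGAP1, differed less, by 0.0096 log2 with CFX and −0.085 with Mt-CFX. RHOA, the substrate of ECT2, was at 10.42, 10.50 and 10.47, with both compounds above the control.

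Of 17 measured cytokinesis genes 12 were lower with Mt-CFX than in the control (23.2% of all genes). A further 4 were higher (23.9%) and 1 was equal (52.9%), with a median of −0.085 log2. At least 1.2-fold lower were 4 (5.73% of all genes), among them RACGAP1 at −0.58 and the midzone kinesin gene KIF4A at −0.54 log2. The others were INCENP, a subunit of the chromosomal passenger complex, at −0.45, and the kinesin gene KIF20A at −0.36 log2. KIF4A was also lower with CFX, by a log2 difference of −0.21, in contrast to ECT2 and RACGAP1. The higher genes RHOA, CEP55, SEPTIN2 and TSG101 differed by at most 0.043 log2.

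In the family of exchange factors, ECT2 was among the 15 of 32 measured genes whose values were not all equal. Counting ECT2, 7 were lower with Mt-CFX than in the control, 6 higher and 19 equal. NET1, an exchange factor for RHOA, was at 7.53 in the control, 7.59 with CFX and 6.73 with Mt-CFX, the lowest difference of the family at −0.79 log2. TIAM2, which acts on RAC1, differed by −0.27, and SOS2, best known as an exchange factor for RAS, was highest at 0.89 log2, with 7.30, 7.74 and 8.19. With CFX 9 were higher, 0 were lower and 23 were equal.

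Regulators of mitotic genes were measured for 7 of 10 listed genes. With Mt-CFX 4 were lower than the control (23.2% of all genes), 2 were higher (23.9%) and 1 was equal (52.9%). The median was −0.048 log2. FOXM1, a transcription factor of G2/M genes such as CCNB1, was at 8.34 in the control, 8.40 with CFX and 8.10 with Mt-CFX. MYBL2, which encodes B-MYB, was at 7.72, 7.74 and 7.54. Both had the order of arrays seen for CCNB1 and ECT2. Neither differed from the control by 1.2-fold (5.73% of all genes were at least 1.2-fold lower with Mt-CFX).

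Over all 12 cell cycle lists, without the 5 genes and without the exchange factors, 106 of 134 genes were measured. With Mt-CFX 67 were lower than the control (23.2% of all genes), 13 were higher (23.9%) and 26 were equal (52.9%), with a median of −0.053 log2 where that of all genes was 0.00. At least 1.2-fold lower were 20 of the 106 (5.73% of all genes), and 1, FBXO4, was at least 1.2-fold higher, a size that 5.99% of all genes reached. With CFX 49 lay above the control (25.8% of all genes), 19 below it (15%) and 38 at it (59.2%). FBXO4 and PCNA were the 2 of the 106 at least 1.2-fold higher, where 1.76% of all genes were. Both comparisons share the control array, so an unusual control value would enter both.

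**Figure D3:**
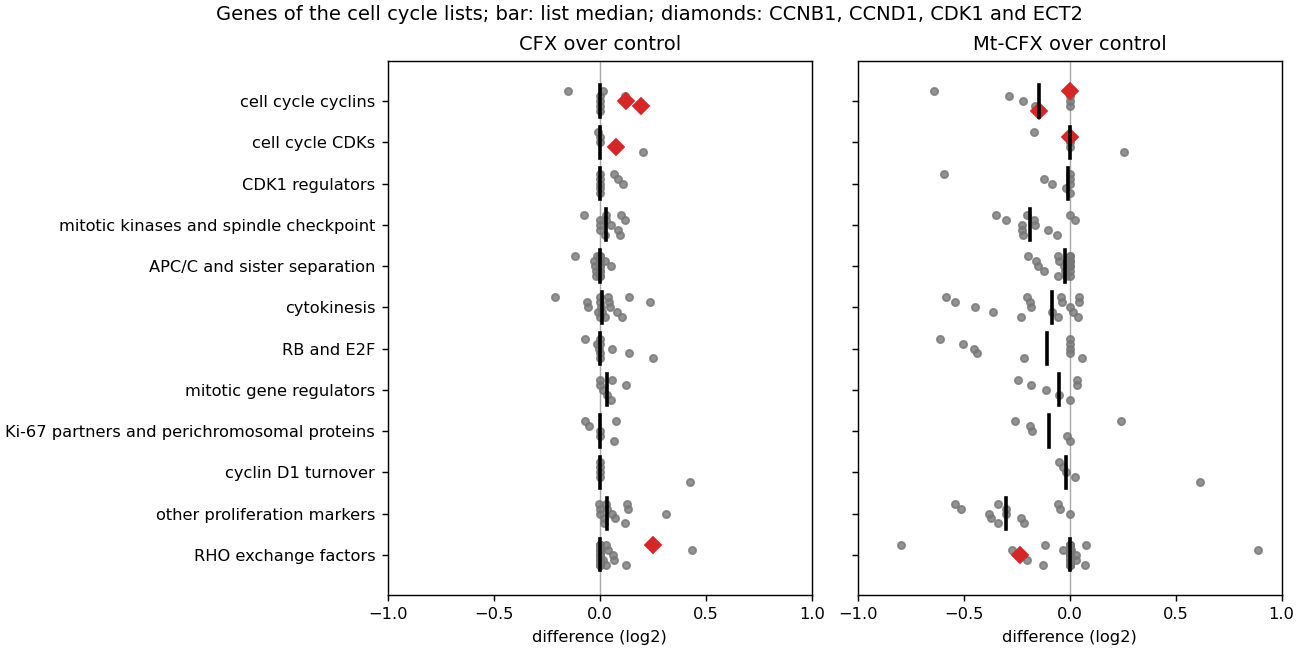
Differences from the control (log2, horizontal axis) of every measured gene in the cell cycle lists, for CFX on the left and Mt-CFX on the right, with a grey point per gene, a black bar at the list median and red diamonds for CCNB1, CCND1, CDK1 and ECT2. The list of other proliferation markers has its median at −0.30 with Mt-CFX and at 0.035 with CFX, and the diamonds of CDK1 and CCND1 lie at 0.00 with Mt-CFX.

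The compounds were compared directly at 10 µM and 72 h, as 1 pair. The log2 difference of Mt-CFX over CFX was −0.60 for MKI67, −0.48 for ECT2, −0.34 for CCNB1, −0.12 for CCND1 and −0.078 for CDK1. In ratios, the Mt-CFX array had 0.660 of the CFX value for MKI67, 0.715 for ECT2, 0.791 for CCNB1, 0.917 for CCND1 and 0.947 for CDK1. At least 1.2-fold lower were 3 of the 5 genes, against 5.76% of all genes, and at least 1.5-fold lower was 1, MKI67, against 1.03%. Only 86 genes had a lower difference than MKI67, 147 a lower one than ECT2 and 340 a lower one than CCNB1. For MKI67 the control stood with CFX, for CDK1 and CCND1 with Mt-CFX, and for CCNB1 and ECT2 between them. No interval can be given for any of these differences, and the small ones of CDK1 and CCND1 do not show that the compounds act alike on these genes.

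In the wider lists, the Mt-CFX value was below the CFX value for 75 of the 106 other cell cycle genes (25.2% of all genes). It was above the CFX value for 5 (20.1% of all genes) and equal to it for 26 (54.7% of all genes). At least 1.2-fold lower were 27, against 5.76% of all genes. RACGAP1 had the lowest difference at −0.82 log2, followed by CDC25A at −0.66, TYMS at −0.64 and CCNE2 at −0.64. Of the proliferation markers all 13 were lower with Mt-CFX (25.2% of all genes), with a median of −0.40 log2, and PCNA differed by −0.53.

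**Figure D4:**
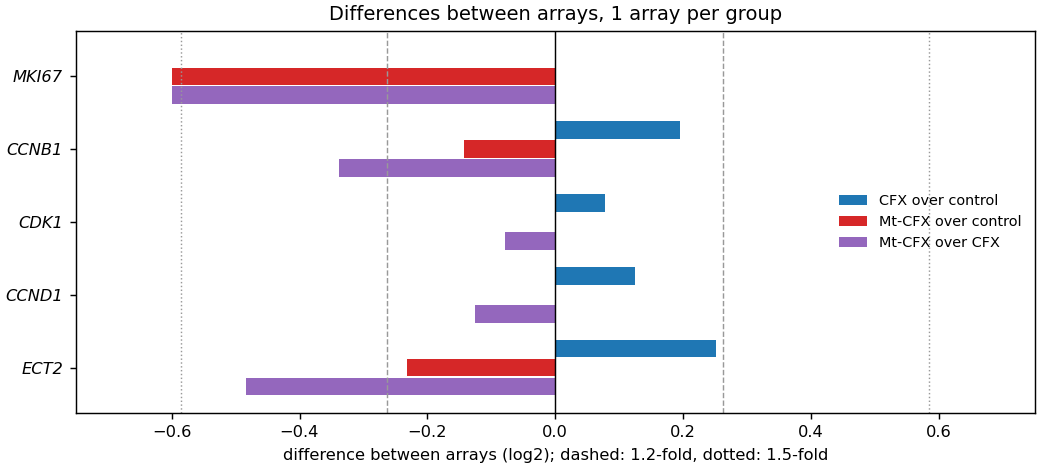
Differences between arrays (log2, horizontal axis) of the 5 genes in the 3 comparisons, 1 bar per comparison, with lines at 1.2-fold and 1.5-fold. Every bar of Mt-CFX over CFX points to lower values, from −0.60 for MKI67 to −0.078 for CDK1, and MKI67 has no bar for CFX over control.

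The genes with the most similar values were found by the Euclidean distance between values centred on each gene's mean over the 3 arrays. For MKI67 they were BMP4, DISP2, BRIP1, ACSL5 and TMEM51, at distances of 0.0055 to 0.012 log2. BMP4, the nearest, was at 7.64 in the control, 7.64 with CFX and 7.03 with Mt-CFX. In the same order BRIP1, a helicase of DNA repair, was at 8.75, 8.76 and 8.15. For CCNB1 they were SPCS2, TMEM171, RANBP2, CDCA4 and WDHD1, at 0.018 to 0.031. For ECT2 they were LYAR, RBL1, PCNA, EIF4E and SASS6, at 0.015 to 0.056. SASS6, needed for centriole assembly, was at 8.60, 8.78 and 8.36. CDK1 and CCND1 each had a high CFX value and a pair of equal values, and their nearest genes lay closer. They were SMYD4, CXCL17, RBBP6, HAT1 and PM20D2 for CDK1, at up to 0.0012 log2, and TMEM278, ANKRD13B, ARHGEF3, SETD3 and MANSC1 for CCND1, at up to 0.0020. With 3 arrays likeness of this kind rests on 3 values per gene.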

How the data were processed

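Total RNA was hybridised as biotin-labelled sense cDNA made with whole-transcript kits, per the labels' protocols. Per the submitters' processing notes, the authors used Affymetrix Expression Console and its RMA method to make the deposited log2 values, 1 per probe set and array. Versions, annotation release and genome build are not given in the sources used here, so no probe set coordinates are printed. As background, RMA gives all arrays nearly the same distribution, so total RNA per sample is not visible.

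Of 53617 probe sets, 16098 had 1 gene symbol, 0 had several and 37519 were unnamed here. All named ones matched the reference table by gene ID. A gene was represented by its probe set with the highest mean, and kept if the highest array reached 3.89 log2, which left 8868 protein-coding genes. Differences of log2 values were taken, with no test since each group was 1 array. The number of arrays limits the precision. Fold sizes of 1.2, 1.5 and 2 were counted, and counting was tested on simulated data.

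The 5 genes, the 13 gene lists and the comparisons were chosen with earlier results of these data known. Named in the text were the 5 genes, the measured cyclins, CDKs and CDK inhibitors, up to 4 genes per list and comparison with at least 1.2-fold, and 5 nearest genes per gene. Further list genes (such as NIFK, KIF15, WEE1, KIF23, RHOA, FOXM1 and genes with equal values) were named after their values were seen, for their known roles. Alternatives were other floors, averaged probe sets, lowess re-centring with a span of 0.3, all gene types and other fold sizes. Promoter windows came from RefSeq (GRCh38.p14). Python 3.11.15, numpy 2.4.6, pandas 2.3.3, statsmodels 0.14.6 and matplotlib 3.10.9 were used.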

Additional observations from a re-analysis of the deposited data

How the results depend on the processing

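Each of the 5 genes had 1 probe set above every floor tried, so other floors, averaged probe sets and every gene type could not change its differences. Lowess re-centring could do so where the CFX array was part of the comparison, and it moved 4 differences by 0.005 log2 or more. For CFX over control it gave −0.018 for MKI67 and 0.24 for ECT2. With Mt-CFX set against CFX it gave −0.59 for MKI67 and −0.48 for ECT2. In Mt-CFX over control the fitted shift was 0 for every gene. Re-centring could thus change no difference and no list median there, and how far those values depend on it was not tested. Counts of genes depended on the size. At 1.5-fold 4 genes were higher and 9 lower with CFX against the control, 129 and 111 with Mt-CFX against the control, and 100 and 91 with Mt-CFX against CFX. At 1.2-fold these were 156 and 114, 531 and 508, and 415 and 511. At 2-fold the counts were 2 and 0, 27 and 23, and 23 and 11. For CFX against the control at 2-fold, 0 were higher when the floor was set on the 3-array mean or at the 75th percentile, 6 were higher and 1 lower with every gene type, and 1 was lower with no floor. Of the cell cycle list genes at least 1.2-fold higher, 1 was left for CFX and 0 for Mt-CFX with the floor at the 75th percentile, and there were 2 for Mt-CFX with averaged probe sets, the added gene being CDC27 through a weak probe set. List medians moved by 0.005 log2 or more in 22 of 165 recomputations, and that of the RB and E2F genes went to 0 in both Mt-CFX comparisons with the floor at the 75th percentile, from −0.11 against the control and −0.22 against CFX. No paired analysis was possible because each group was 1 array. Ties and the single arrays limit what small differences can show.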

Other observations

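Exactly recurring values were common on these arrays. On the control array 67.8% of all probe sets had a value that at least 1 other probe set had as well, and on the CFX and Mt-CFX arrays 68.9% and 67.8% did. The most common control value, 2.19 log2, was that of 1022 probe sets. Among the 5 genes, CDK1 shared its control and Mt-CFX values with 15 and 14 other probe sets, ECT2 its CFX value with 1 and CCND1 its Mt-CFX value with 1, while MKI67 and CCNB1 shared none.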
